A study of Mus musculus with 8 samples.

Results

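The replication-dependent histone genes were taken as every row of the count tables whose gene name starts with Hist1h, Hist2h, Hist3h or Hist4h. This gave 56 of the 17700 listed genes. RNA was measured in cerebellum of 8 C57BL/6JN mice without any genetic change or drug named in the labels, which call the old mice the treated group. The old group held 4 mice of 93, 83, 83 and 102 weeks (old 1 to old 4) and the young group 4 mice of 19, 19, 19 and 22 weeks (young 1 to young 4). Old 1, old 3, young 1 and young 2 were male, and old 2, old 4, young 3 and young 4 were female. The libraries were made from total RNA after removal of ribosomal RNA, a method that does not select for a poly(A) tail.

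Core histones H2A, H2B, H3 and H4 form the protein spool of the nucleosome, and linker histone H1 binds where DNA enters and leaves it. Replication-dependent histone genes lie in clusters, mostly lack introns, and supply new histones when DNA is copied in S phase. Their mRNAs typically end in a conserved stem loop in place of a poly(A) tail, and the stem-loop binding protein Slbp attaches there. Cells that no longer divide, such as mature granule and Purkinje neurons, draw on replacement variants such as H3.3 from genes that are expressed outside S phase, and some genes of the clusters can also yield polyadenylated mRNA in differentiated cells.

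Most members shared the stem loop, and the cores found in H4 genes did not occur in the other types. It was searched in GENCODE M21 transcripts (GRCm38), on the sense strand after the stop codon, as GG, any 3 bases, TT, any base, T, any base, A, any 3 bases and CC, with the first 6 bases able to pair with the last 6 (G with T allowed). Of 56 members, 41 held it, starting 21 to 54 bases after the stop codon with a median of 31. Of the 15 without it, 13 had an annotated transcript with under 50 bases after the stop codon. The other 2 were Hist2h2be and Hist1h2bc. Among 19931 other genes with enough annotated sequence, 5 (0.0251%) held the pattern within 116 bases of a stop codon, among them the H2A variant gene H2afx. One gene of each core type, the H1 gene with the largest count share and a second H4 gene with another core are shown, with the 16-base loop and stem in capitals and 5 flanking bases on each side in lower case.
Hist1h1e, chr13:23621777-23621802, minus strand: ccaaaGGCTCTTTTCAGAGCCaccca
Hist3h2a, chr11:58955167-58955192, plus strand: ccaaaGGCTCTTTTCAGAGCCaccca
Hist3h2ba, chr11:58949344-58949369, plus strand: ccaaaGGCTCTTTTCAGAGCCacctt
Hist1h3e, chr13:23561898-23561923, minus strand: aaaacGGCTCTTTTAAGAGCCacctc
Hist1h4c, chr13:23698084-23698109, minus strand: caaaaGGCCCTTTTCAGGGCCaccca
Hist2h4, chr3:96262934-96262959, minus strand: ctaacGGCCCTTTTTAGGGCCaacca
In all, 8 different cores occurred. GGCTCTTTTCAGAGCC was shared by 21 genes of types H1, H2A, H2B and H3, and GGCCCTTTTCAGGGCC by 7 genes, each of them H4. The annotated transcript ran more than 100 bases past the loop in 22 members and ended within 100 bases of it in 19. The first 22 had a median level of 7.98 CPM per kb of exon (20 tested) and the other 19 of 2.16 (9 tested), and they also differed in the share of sequence found in no other gene, with medians of 80.6% and 44.6% of windows of 75 bases.

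The promoters also differed by type. RefSeq promoter sequences (GRCm38.p6, 250 bases before to 50 after the start) were matched for 51 members through older gene symbols. CCAAT, the letters of the CCAAT box, occurred on either strand in every promoter of the 6 H1, 13 H2A, 12 H2B and 8 H3 genes matched, in 3 of 12 H4 promoters (Hist1h4a, Hist1h4c and Hist1h4d), and in 37.4% of 32851 RefSeq promoters. ATTTGCAT, the octamer bound by POU factors such as Oct-1, occurred in 6 of 13 H2A and 4 of 12 H2B promoters, in none of the H1, H3 or H4 promoters matched, and in 1.74% of all promoters. TATAAA occurred in 32 of 51 member promoters (62.7%) and in 13.6% of all promoters. Matches of different motifs were allowed to overlap, and a match is a run of letters, not a measured binding site. Promoter windows of neighbouring H2A and H2B genes on opposite strands can overlap, as those of Hist1h2ah and Hist1h2bk do. The same site can then count once for each type, so these promoters are not all separate. The octamer stood in promoters of H2A genes at opposite ends of the measured range, and these are shown with octamer, CCAAT and TATAAA matches of either strand in capitals.
Hist3h2a, chr11:58954435-58954734, plus strand: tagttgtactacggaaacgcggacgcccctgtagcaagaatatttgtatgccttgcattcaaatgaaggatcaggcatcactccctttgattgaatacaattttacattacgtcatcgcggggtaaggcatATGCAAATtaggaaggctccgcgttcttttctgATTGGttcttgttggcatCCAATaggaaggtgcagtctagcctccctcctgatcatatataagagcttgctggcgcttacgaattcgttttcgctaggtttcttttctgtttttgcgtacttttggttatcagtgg
Hist1h2ah, chr13:22035594-22035893, minus strand: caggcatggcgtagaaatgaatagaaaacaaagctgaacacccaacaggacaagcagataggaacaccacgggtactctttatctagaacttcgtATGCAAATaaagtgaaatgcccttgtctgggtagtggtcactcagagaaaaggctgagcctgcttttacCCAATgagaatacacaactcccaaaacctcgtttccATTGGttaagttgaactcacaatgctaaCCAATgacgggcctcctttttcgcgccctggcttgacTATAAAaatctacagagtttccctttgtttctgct
Hist3h2a had 172 to 295 counts in each library, whereas Hist1h2ah had 2 counts in young 3 and none in the other 7 libraries. The 10 H2A and H2B genes with an octamer match had mean levels of 0.0426 to 39.7 CPM, and the 15 without had 0.230 to 38.5 CPM.

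Total counts per library were 6079485 to 7236720. Levels are given in CPM, counts scaled to a library total of 1000000 after TMM adjustment, so that 3 counts corresponded to 0.420 to 0.511 CPM, a floor for counting error only. As a check of the labelled tissue, the 14 granule neuron markers summed to 5303 to 8830 CPM and the 12 Purkinje cell markers to 5716 to 8335 CPM over the 8 libraries. All 14 and all 12 had enough counts to be tested, which by itself does not set a tissue apart, as 5 of 7 liver genes also had. Liver transcripts (7 genes) summed to 84.1 CPM in old 2, 23.6 in old 3 and 21.2 in young 4, against 0.681 to 9.62 in the other 5 libraries. Choroid plexus and ependymal markers (12 genes) summed to 55.2 to 84.4 CPM in young 4, old 3 and young 3 and to 313.5 to 938 CPM in the other 5.

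Histone transcripts were detected from all 4 clusters and all 5 types, with H4 the type detected throughout. The Hist1 cluster lies on chromosome 13 between 21715763 and 23764406 (GRCm38) with 48 listed genes, Hist2 on chromosome 3 between 96219865 and 96263311 with 5, Hist3 on chromosome 11 between 58948920 and 58956830 with 2, and Hist4 on chromosome 6 at 136801553 to 136804415 with Hist4h4 alone. Each of the 13 H4 genes had at least 3 counts in every library, as did 5 of 6 H1, 8 of 13 H2A, 8 of 14 H2B and 7 of 10 H3 genes. With enough counts for a test by edgeR's filter were 39 members, namely 13 of 13 H4, 5 of 6 H1, 7 of 13 H2A, 7 of 14 H2B and 7 of 10 H3 genes. By cluster these were 31 of 48 in Hist1, 5 of 5 in Hist2, 2 of 2 in Hist3 and the Hist4 gene. Within Hist1, the 29 genes between 23531050 and 23764406 gave 69.5% of the summed histone CPM and the 19 between 21715763 and 22043676 gave 10.4%. A further 11 protein-coding histone genes of the annotation (5 H2A, 4 H2B and 2 H3) were not among the listed genes, 6 of them in Hist1 and 5 in Hist2. Each of the 17700 listed genes had at least 1 count over the 8 libraries. The numbers detected and tested are therefore out of listed genes, not out of all annotated ones.

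The 17 members with too few counts for a test included 13 H2A and H2B genes, and none exceeded 12 counts in a library. The H2A genes were Hist1h2ab, Hist1h2ad, Hist1h2af, Hist1h2ag, Hist1h2ah and Hist1h2an, and the H2B genes Hist1h2bh, Hist1h2bj, Hist1h2bk, Hist1h2bl, Hist1h2bm, Hist1h2bn and Hist1h2bp. The H3 genes were Hist1h3b, Hist1h3c and Hist1h3g. Hist1h1t, the testis-specific linker histone, had 1 count in each of old 3, old 4 and young 4 and none elsewhere. Hist1h1t and Hist1h2ah were the 2 members that did not reach 3 counts in any library. Together the 17 genes held 0.802% of the summed histone CPM.

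**Figure D1:**
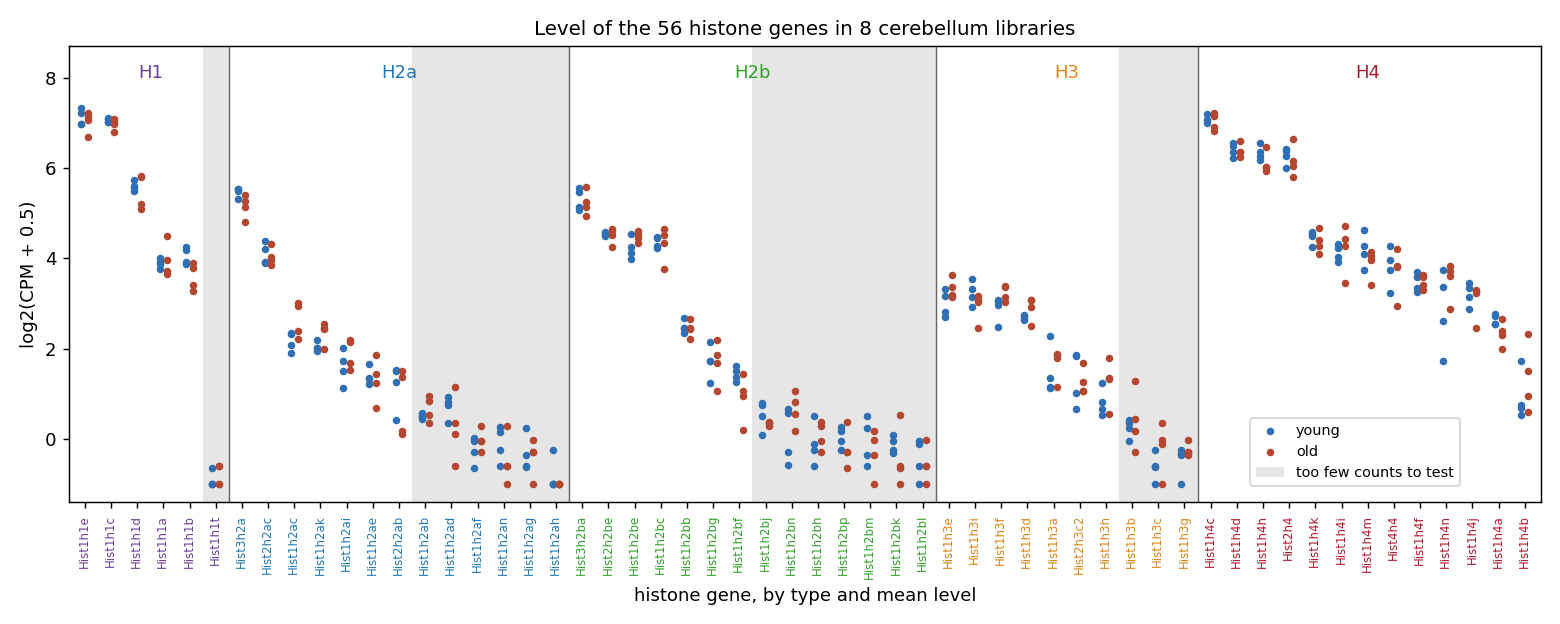
Level of each of the 56 histone genes as log2(CPM + 0.5) on the vertical axis, with 4 young (blue) and 4 old (red) libraries as points, ordered by type and mean level. Grey bands mark the 17 genes with too few counts to test. H4 genes all lie outside the grey bands, and blue and red points overlap for every tested gene.

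Counts were concentrated in a few H1 and H4 genes. The 3 members with most counts, Hist1h1e (H1.4), Hist1h4c and Hist1h1c (H1.2), held 38.2% of the summed histone CPM, and the first 10 held 74.9%. Those 10 comprised 4 H4, 3 H1 and 3 H2A or H2B genes. On the scale of CPM per kb of GENCODE exon length, which allows genes to be compared, Hist1h4c stood at 162, Hist1h4h at 159.5, Hist1h1c at 82.8, Hist1h4d at 73.8, Hist1h1e at 70.3, Hist1h4k at 66.95, Hist3h2ba at 62.8 and Hist2h4 at 45.9. RefSeq gene lengths were tried in place of exon lengths, an alternative added after seeing the data. They take the whole gene span and so include introns for Hist1h2be, Hist1h2bc and Hist1h2bp. By RefSeq length the same genes stood at 354, 172, 178, 209.0, 173.5, 51.1, 83.4 and 194.7 CPM per kb. Of the 10 members with most counts, Hist1h1d and Hist2h2be stood far lower per kb of exon, at 6.29 and 8.60, and Hist1h1d was at 60.1 by RefSeq length. Hist1h4c led on both scales, while the order below it depended on where the annotated gene ends. The median of the 39 tested members was 10.6 CPM per kb by exon length and 16.9 by RefSeq length, and that of all 14091 tested genes with a length was 6.64 by exon length.

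Linker histones compact nucleosomal DNA, and 2 of their genes, Hist1h1e and Hist1h1c, held most H1 counts. Hist1h1e lies on chromosome 13 at 23620629 to 23622558 and has a single annotated exon. It measured 140, 149, 134 and 103 CPM in old 1 to old 4 and 147, 126, 126 and 161 CPM in young 1 to young 4. Old 4 was the lowest library, and the other old values lay inside the young range. Hist1h1c, at 23738808 to 23740367, averaged 126 ± 10.9 CPM for the old and 132.5 ± 4.69 CPM for the young group (SD, n = 4 each). Hist1h1d (H1.3) had 33.7, 55.3, 56.2 and 36.3 CPM in old and 53.0, 44.6, 47.8 and 46.4 CPM in young mice, so the old values fell on both sides of the young ones. Its log2 age difference was -0.08 ± 0.17 (SE) over 8 libraries. Without the 3 libraries richest in liver transcripts it was -0.48 (adjusted p of 0.129 by edgeR), in a fit that kept only old 1 and old 4 of the old mice. Hist1h1a (H1.1) and Hist1h1b (H1.5) had means of 14.9 and 14.0 CPM, with 20.1 and 18.8 CPM per kb of exon.

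Among H4 genes, which encode the same core protein, 4 carried most of the counts. Hist1h4c, on chromosome 13 at 23697635 to 23698454, measured 142, 120, 149 and 113 CPM in old 1 to old 4 and 133, 134, 127 and 145 CPM in young 1 to young 4. Old 2 and old 4 lay below the young values and old 3 above them. Hist1h4d averaged 83.6 ± 8.85 CPM for the old and 84.5 ± 8.58 CPM for the young group (SD, n = 4 each). Hist1h4h had 60.6, 64.4, 87.2 and 64.3 CPM in old and 93.4, 72.2, 76.1 and 81.4 CPM in young mice. Old 3 was the old library inside the young range. Hist2h4, the H4 gene of the chromosome 3 cluster at 96261682 to 96263311, ran from 55.4 CPM in old 1 to 99.4 CPM in old 3, a range that contained the young values of 63.6 to 85.6 CPM. The remaining 9 H4 genes had lower means over the 8 libraries, of 20.9 CPM for Hist1h4k, 18.0 for Hist1h4i, 16.4 for Hist1h4m, 13.4 for Hist4h4, 10.7 for Hist1h4f, 9.49 for Hist1h4n, 8.46 for Hist1h4j, 5.19 for Hist1h4a and 1.91 for Hist1h4b. Their age differences in log2 ran from -0.33 ± 0.20 (SE) for Hist1h4a to 0.59 ± 0.41 for Hist1h4b.

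Most H2A counts, and somewhat more H2B counts than came from Hist1, came from the small clusters. Hist3h2a and Hist2h2ac held more H2A counts than the 10 Hist1 H2A genes together, which summed to 18.9 ± 2.61 CPM for the old and 15.7 ± 0.246 CPM for the young group (SD, n = 4 each). The 2 H2B genes outside Hist1 summed to 59.8 ± 9.58 and 62.4 ± 7.17 CPM, beside 54.9 ± 7.60 and 52.4 ± 4.12 CPM for the 12 in Hist1. Hist3h2ba, which averaged 37.5 ± 7.29 CPM for the old and 39.6 ± 6.80 CPM for the young group (SD, n = 4 each), held 33.6% of the H2B sum. Next came Hist2h2be, Hist1h2be and Hist1h2bc with means of 22.5, 20.2 and 20.0 CPM. The other tested H2A genes were Hist1h2ac, Hist1h2ak, Hist1h2ai, Hist1h2ae and Hist2h2ab, with means of 4.97, 4.15, 2.95, 2.11 and 1.63 CPM. The other tested H2B genes were Hist1h2bb, Hist1h2bg and Hist1h2bf, with 5.04, 2.87 and 1.84 CPM. Many H2A and H2B genes form head-to-head pairs, and 9 such pairs with 500 bases or less between the genes were found. In the chromosome 3 pair, with 238 bases between the genes, Hist2h2ac stood at 31.5 and Hist2h2be at 8.60 CPM per kb by exon length, and at 35.0 and 8.45 by RefSeq length. For Hist1h2ac and Hist1h2bc, 250 bases apart, the order turned with the length used, at 2.00 and 17.3 CPM per kb by exon length and 10.2 and 2.41 by RefSeq length, where the length of Hist1h2bc includes an intron.

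H3 genes of the clusters had the smallest sum of the 5 types. Hist1h3e, Hist1h3i, Hist1h3f and Hist1h3d had means of 8.63, 8.14, 7.99 and 6.48 CPM, and Hist1h3a, Hist2h3c2 and Hist1h3h of 2.61, 2.08 and 1.65 CPM. No H3 gene stood out from the others in the way that Hist1h4c did among H4 genes, and Hist1h3e held 22.2% of the H3 sum.

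The comparison of old with young mice asked whether histone transcript levels change with age in the cerebellum. Summed by type, H1 measured 329, 369, 348 and 272.5 CPM in old 1 to old 4 and 371, 325, 332 and 377 CPM in young 1 to young 4. H4 measured 409, 438, 555 and 438 CPM in old and 508, 446, 454.5 and 519 CPM in young mice. H2B measured 94.7, 114, 137 and 113.5 CPM in old and 117, 107, 114 and 121 CPM in young mice. In these 3 types the old libraries spread more widely than the young ones and overlapped them.

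H2A measured 60.6, 74.0, 83.1 and 69.5 CPM in old 1 to old 4 and 77.6, 76.7, 82.2 and 76.5 CPM in young 1 to young 4, so that old 3 lay above every young library and the other 3 old ones below. H3 was the type whose sums did not overlap, at 38.1, 42.3, 42.2 and 42.4 CPM in old and 34.1, 37.9, 37.1 and 37.6 CPM in young mice. Single H3 genes did not repeat that separation. Hist1h3e measured 9.78, 8.63, 11.8 and 8.35 CPM in old 1 to old 4 and 6.04, 8.46, 6.47 and 9.53 CPM in young 1 to young 4, with young 2 and young 4 among the old values. The age differences in log2 were 0.32 ± 0.20 (SE) for Hist1h3e, 0.33 ± 0.19 for Hist1h3f, 0.23 ± 0.18 for Hist1h3d and 0.18 ± 0.34 for Hist1h3a. Hist1h3i and Hist2h3c2 had the opposite sign, at -0.30 ± 0.20 and -0.14 ± 0.39. For the H3 sum, the gap between the lowest old and the highest young library was small beside the spread within each group. For single genes, 3.15% of 14191 tested genes had old values above all young ones and 3.42% had them below, and no tested histone gene did either. The sum of all 56 genes averaged 1018 ± 109.8 CPM for the old and 1062 ± 66.8 CPM for the young group (SD, n = 4 each), a ratio of 0.958. No p-value is given for these sums because the members were chosen.

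**Figure D2:**
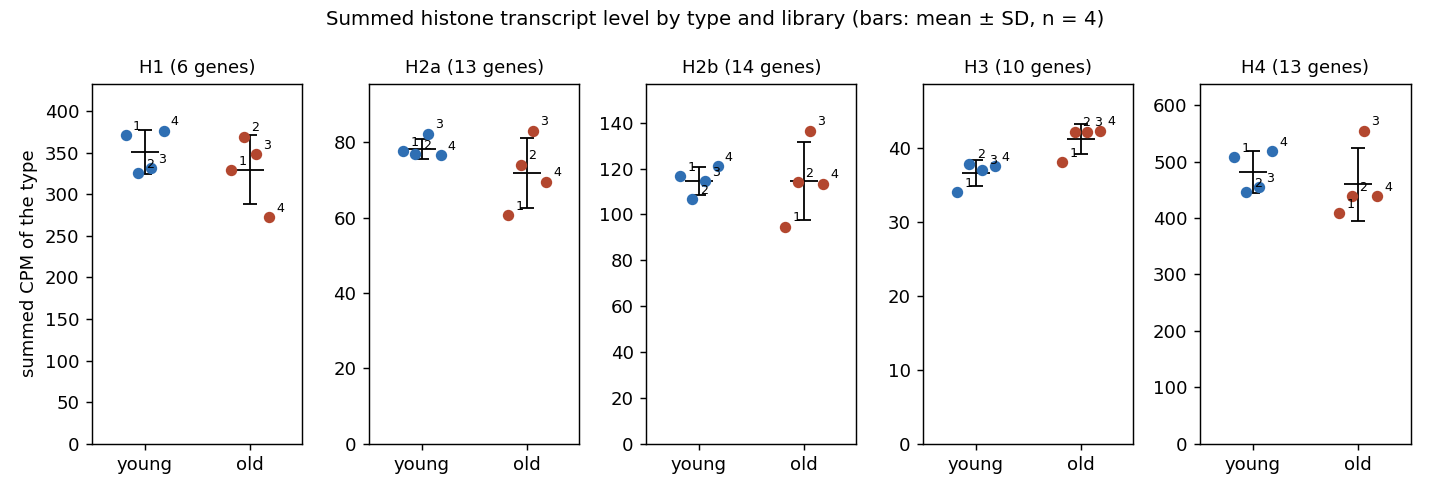
Summed CPM of each histone type on the vertical axis, from 0, with 4 young (blue) and 4 old (red) libraries as points numbered by replicate and bars for the mean ± SD. The H3 points lie at 34.1 to 37.9 CPM in young and 38.1 to 42.4 CPM in old mice, and the points of the other 4 types overlap between ages.

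No histone gene passed the test for age. Of 39 tested, 0 had an adjusted p under 0.05 by edgeR's quasi-likelihood test with a term for sex and Benjamini-Hochberg adjustment, against 17 of 14191 genes overall (0.12%), of which 14 were higher (0.0987%) and 3 lower (0.0211%) in old mice. DESeq2 and limma-voom also called 0 histone genes. At an unadjusted p under 0.05 there were 3 histone genes (7.69%), against 11% of all tested genes. Of the 39 log2 fold changes 15 were positive and 24 negative, with a median of -0.04 beside -0.01 over all tested genes. By type, positive values were found for 5 of 7 H3 genes (median 0.23), whereas 4 of 13 H4, 3 of 7 H2A, 2 of 7 H2B and 1 of 5 H1 genes were positive. The 95% interval lay within a 2-fold change in either direction for 34 of the 39 genes, and within a 1.5-fold change for 17.

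The 3 genes with the smallest p were an H2A gene with a positive and an H1 and an H2A gene with negative values. Hist1h2ac measured 4.17, 7.19, 4.71 and 7.57 CPM in old 1 to old 4 and 3.25, 3.76, 4.60 and 4.48 CPM in young 1 to young 4. Its log2 fold change was 0.55 ± 0.20 (SE), with an adjusted p of 0.323 by edgeR. Both female old mice were high, and old 1 lay inside the young range.

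Hist1h1b, the gene of linker histone H1.5, measured 9.13, 13.2, 14.3 and 10.1 CPM in old mice and 17.8, 14.1, 14.6 and 18.4 CPM in young mice. Old 3 lay just above the lowest young library and the other old values below it. The log2 fold change was -0.47 ± 0.17 (SE), with an adjusted p of 0.335 by edgeR. Hist3h2a measured 27.6, 38.1, 41.9 and 34.4 CPM in old and 45.7, 44.5, 46.1 and 39.4 CPM in young mice. The fitted log2 difference was -0.30 ± 0.13 (SE), with an adjusted p of 0.404 by edgeR. Here old 3 lay above young 4 and the other old values below every young one. With old 2, old 3 and young 4 left out, the libraries richest in liver transcripts, the log2 fold change of Hist3h2a was -0.58 with an adjusted p of 0.0494 by edgeR, in a fit added after seeing the data that called 1.28% of 14404 genes. That fit set old 1 and old 4 against young 1, young 2 and young 3. It left out old 3 and young 4, whose Hist3h2a values crossed. Old 1 and old 4 had the lowest sums of the 56 histone genes (931 and 936 CPM) and old 3 the highest (1165 CPM). In that fit of 5 libraries 8 of 40 histone genes had an unadjusted p under 0.05 (20%), 6 of them lower and 2 higher in old mice, against 11.2% of all genes. Whether liver transcripts or the choice of mice had a part was not tested. In GENCODE the exons of Hist3h2a overlap those of the same-strand gene Trim17, and 708 of its 2146 exon bases lie in another gene, so its counts are uncertain.

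The best measured genes had narrow intervals around no change. Hist1h1c had a log2 fold change of -0.08 with a 95% interval of -0.25 to 0.10, and Hist1h4c of -0.04 with an interval of -0.24 to 0.15. For Hist1h4d the value was -0.02 with an interval of -0.24 to 0.21, and for Hist1h1e -0.09 with an interval of -0.37 to 0.18. The largest positive and negative values belonged to genes with few counts. Hist1h3h, with 6 to 19 counts in a library, had a log2 fold change of 0.64 and an interval of -0.16 to 1.43, and Hist1h2bf, with 4 to 15 counts, -0.58 and an interval of -1.37 to 0.21.

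**Figure D3:**
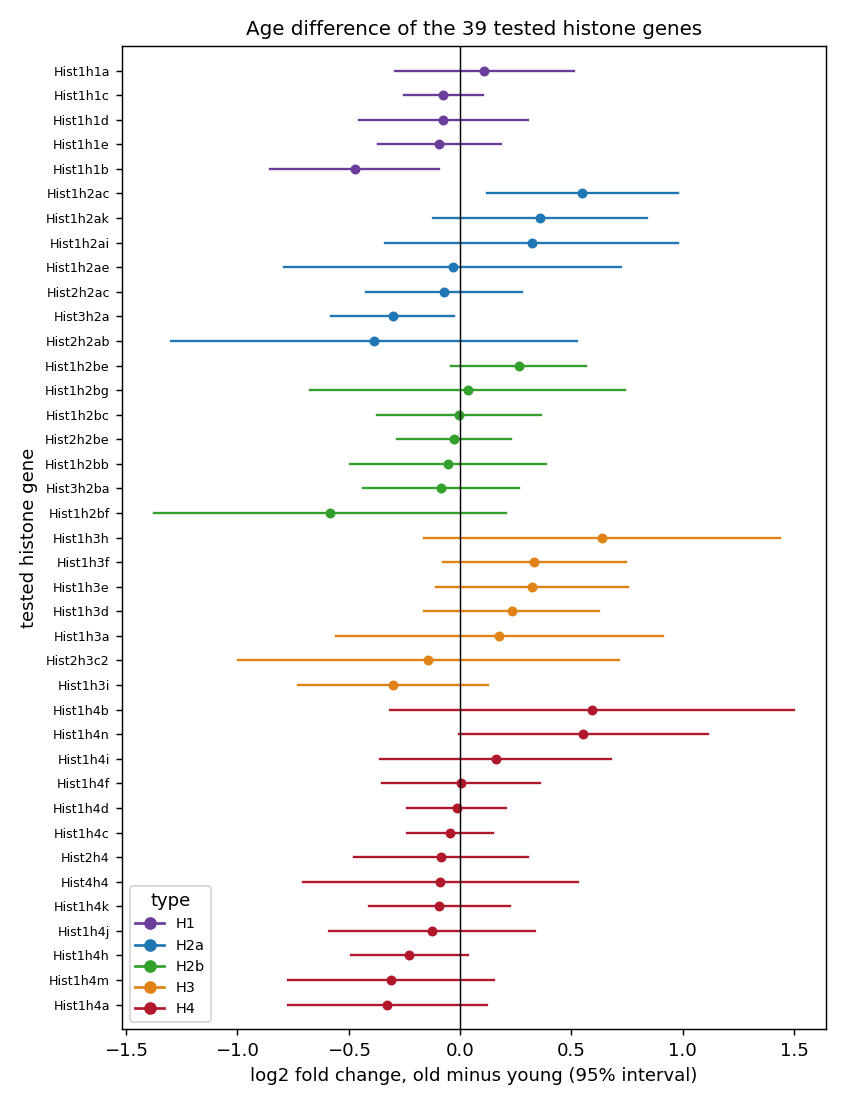
Log2 fold change of old minus young mice for the 39 tested histone genes on the horizontal axis, with 95% intervals from edgeR's quasi-likelihood fit and colours for type. Intervals of Hist1h2ac, Hist1h1b and Hist3h2a leave out 0 before adjustment, and no gene passes after it.

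Sex gave no call among histone genes either. At an adjusted p under 0.05 by edgeR, 0 of 39 histone genes differed between females and males, against 6 of 14191 genes (0.0423%), 2 higher in females (0.0141%) and 4 lower (0.0282%). DESeq2 also called 0. Unadjusted, 4 histone genes (10.3%) had p under 0.05, against 4.76% of all genes. They were Hist1h4n and Hist1h2ac with female minus male log2 values of 0.89 ± 0.26 and 0.58 ± 0.20 (SE), and Hist1h4b and Hist2h2ab with -1.15 ± 0.42 and -1.01 ± 0.42. Each had an adjusted p of 0.930 by edgeR.

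Hist1h4n had the smallest unadjusted p for sex. The gene measured 6.89, 12.7, 11.6 and 13.7 CPM in old 1 to old 4 and 2.79, 5.64, 9.87 and 12.8 CPM in young 1 to young 4. Young 1 and young 2, both male, were the lowest libraries, and the old male old 3 lay among the females. Its neighbour Hist1h4m, which shares 82% of the 75-base windows of Hist1h4n, had its highest value of 24.3 CPM in young 2, and how reads were divided between these genes was not tested. The interaction of age and sex, from 2 animals in each of the 4 cells, was not called for any histone gene by edgeR or for any of 14191 genes (0%), with 2 histone genes and 2.3% of all genes at an unadjusted p under 0.05.

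Histone levels also differed between mice of the same age. Old 1 was the lowest library for 17 of the 39 tested genes and old 3 the highest for 14. The median deviation of tested H4 genes from their own means was -0.30 on the log2(CPM + 0.5) scale in old 1 and 0.23 in old 3, and that of H2B genes -0.32 and 0.26. H1 genes deviated most in old 4, at -0.34. Old 1 and old 3 were both male, of 93 and 83 weeks.

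Markers of granule neurons were high and low in the same libraries as the histone sum. This held in part for Purkinje cell markers and did not hold for every cell type. The 56 histone genes summed to 931, 1038, 1165 and 936 CPM in old 1 to old 4 and to 1107, 992, 1020 and 1131 CPM in young 1 to young 4. The 14 granule neuron markers summed to 6096, 6832, 7322 and 5303 CPM in old and to 7726, 5815, 6586 and 8830 CPM in young mice. The 3 libraries with the highest histone sums (old 3, young 4 and young 1) were those with the highest granule marker sums, and the 3 with the lowest (old 1, old 4 and young 2) those with the lowest. The match at the top was not particular to granule markers. Genes for histone mRNA 3′ ends (1193, 1229 and 1211 CPM) and for DNA replication and mitosis (191.9, 197.5 and 191.8 CPM), described below, were also highest in those 3. Their 3 lowest libraries differed and included young 3 (1151 and 175 CPM). The match at the bottom was shared by the histone chaperone genes, also described below. These were lowest in old 1, old 4 and young 2 (2165, 2045 and 2122 CPM). They were highest in young 4, old 3 and old 2 (2260, 2243 and 2220 CPM). The 10 oligodendrocyte markers went the other way, with 4170, 3845 and 4678 CPM in old 3, young 4 and young 1. In old 1, old 4 and young 2 they summed to 5119, 5510 and 6454 CPM. Astrocyte markers (12) split in the same way, with 6840, 6373 and 6500 CPM against 7031, 7444 and 7634 CPM. Oligodendrocyte precursor markers (10) did so too, with 259.5, 241 and 291 CPM against 309, 341 and 369 CPM. No granule neuron or oligodendrocyte marker was at 0 in all 8 libraries, which holds for every listed gene and so says nothing about these lists. The part of these markers in the histone values was not tested, and in bulk tissue fewer cells of a type and less RNA per cell cannot be told apart. Microglia and macrophage markers (15 of 15 tested) summed to 250 to 502.5 CPM in old and 153.5 to 199 CPM in young mice and had their highest sum in old 4. Purkinje cell (12), inhibitory interneuron (10) and astrocyte (12) markers had their highest sums, of 8335, 1919 and 8633 CPM, in young 3, a library in the middle of the histone range, and oligodendrocyte precursor markers (10) had theirs, of 369 CPM, in young 2. In old 3, young 4 and young 1 the Purkinje sums were 7781, 7682 and 7335 CPM. They were lower in old 1, old 4 and young 2, at 5716, 6724 and 6553 CPM, and also in old 2, at 6400 CPM. Inhibitory interneuron sums overlapped between the libraries with the highest and the lowest histone sums.

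**Figure D4:**
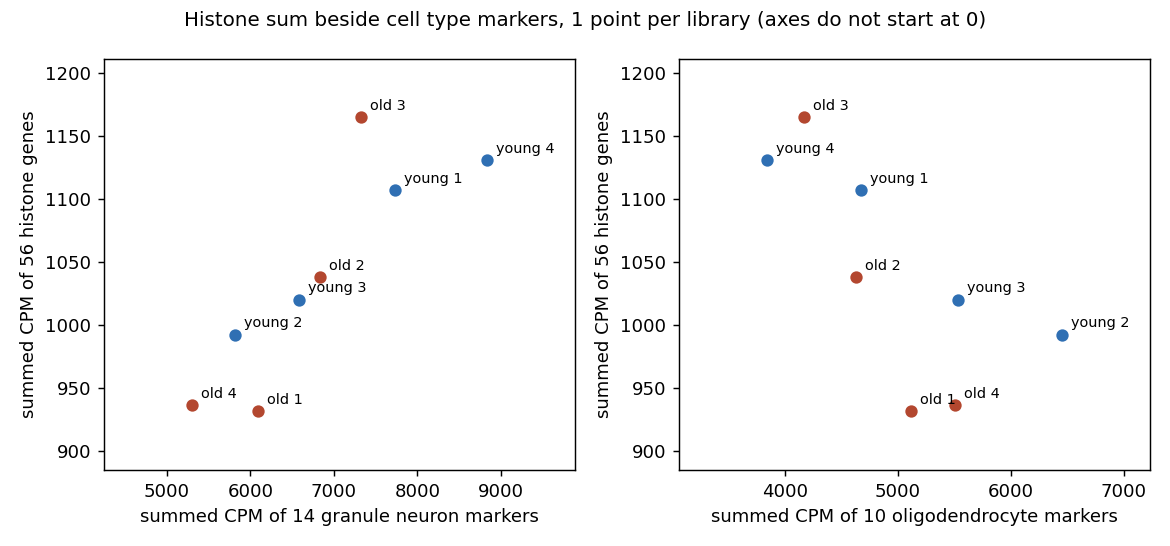
Summed CPM of the 56 histone genes on the vertical axis against the summed CPM of 14 granule neuron markers (left) and 10 oligodendrocyte markers (right), 1 point per library, young in blue and old in red. Old 3, young 4 and young 1 lie high on the left panel at granule sums of 7322 to 8830 CPM, and both axes start above 0.

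Sequence shared with other genes bears on how many reads could be assigned to a member. For each member the 75-base windows of its GENCODE transcript were looked for in the transcripts of all other genes, on either strand. A window also counted as shared where another annotated gene overlaps the same stretch of the genome, as Gm15444 does for Hist2h2ab (62.2% of windows) and Trim17 for Hist3h2a (30.6%). Annotated miRNA genes overlap many H2A genes on the opposite strand, such as Hist1h2ai over 138 bases. The share is therefore not a measure of near-identity alone, and overlap lowers it for H2A genes. The median share of windows found in no other gene was 99.2% for H1, 75.4% for H4, 58% for H2B, 47.6% for H3 and 37.6% for H2A genes. Less than 50% of windows were unique in 23 members, of which 11 had enough counts to be tested, and at least 50% in 33, of which 28 were tested. The 23 had a median level of 2.16 CPM per kb of exon and the 33 of 9.91. Across the 56 genes the rank correlation of the unique share was 0.31 with CPM per kb and 0.51 with mean CPM. Both are given as a description because the genes share libraries, and transcripts with longer 3′ ends are more often unique. The sources used here do not state the read length or how reads with several positions were handled, so low counts of H2A, H2B and H3 genes are a property of assigned reads, and no order of transcript levels between types is drawn from them.

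**Figure D5:**
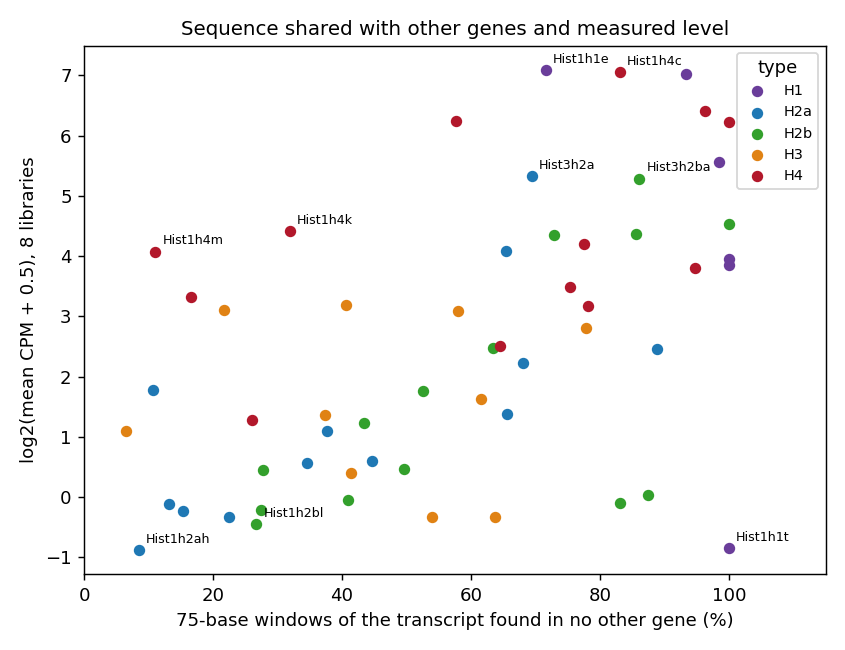
Share of 75-base windows found in no other gene (horizontal axis, %) against log2(mean CPM + 0.5) over 8 libraries (vertical axis), 1 point per histone gene, coloured by type. Hist1h2ah lies at 8.46% unique with the lowest mean level, while Hist1h1t, with 100% unique windows, is also near 0 and Hist1h4m reaches 16.4 CPM at 11% unique.

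Some members overlap others. Hist1h2be and Hist1h1e share 496 exon bases on the same strand in GENCODE, where the Hist1h2be gene model reaches into Hist1h1e, so their counts are uncertain in that stretch. Hist1h4b overlaps an antisense gene on 223 of its 397 bases, and Hist2h2ab one on 303 of 444. Whether the counting used strand is not stated.

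Genes that produce, carry or replace these histones were described from lists. Of 19 replication-independent and variant histone genes, 13 were listed and 11 tested. None passed for age by edgeR, against 0.12% of all genes, and 4 of the 11 had an unadjusted p under 0.05, against 11% of all genes. Those 4 were H2afj, H1f0, H1fx and H2afv, each with a negative value, and H2afj, an H2A variant gene named here after its value was seen, had a log2 difference of -0.41 ± 0.09 (SE) and an adjusted p of 0.125 by edgeR. Of the 11 values 8 were negative, with a median of -0.13 beside -0.01 over all genes. H3f3b, an H3.3 gene, averaged 452 ± 25.5 CPM for the old and 464 ± 36.0 CPM for the young group (SD, n = 4 each). By exon length H3f3b stood at 154 CPM per kb, beside 10.3 for Hist1h3e and 19.8 for Hist1h3i, the H3 gene of the clusters with the highest per-length level. Only 40.6% of the 75-base windows of Hist1h3e and 21.7% of those of Hist1h3i were found in no other gene. For that reason no order of H3f3b and the cluster H3 genes is drawn. H1f0, the linker histone H1.0 of differentiated cells, averaged 207 ± 11.5 CPM for the old and 253 ± 24.6 CPM for the young group (SD, n = 4 each). Its log2 difference was -0.29 ± 0.08 (SE), with an adjusted p of 0.213 by edgeR. By exon length H1f0 stood at 111.9 CPM per kb, beside 82.8 for Hist1h1c, which by RefSeq length was at 178, so no order of these genes is drawn. H2afy, the macroH2A1 gene, and H3f3a, another H3.3 gene, had log2 fold changes of 0.02 ± 0.09 and 0.17 ± 0.13.

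The machinery of histone mRNA ends was expressed at both ages. Of 22 genes for 3′ end processing and decay of histone mRNA, 22 were tested, none passed by edgeR, 0 had an unadjusted p under 0.05, and the median log2 fold change was -0.02. Srrt, which links the cap-binding complex to 3′ end formation, had a log2 fold change of -0.08 ± 0.07 (SE), and Upf1, a helicase that takes part in histone mRNA decay, -0.13 ± 0.09. Lsm11, a protein of the U7 small nuclear ribonucleoprotein that cuts histone pre-mRNA, had 0.03 ± 0.13 and Casp8ap2, a component of histone locus bodies, -0.11 ± 0.08. Of 20 histone chaperone genes 19 were tested and none passed by edgeR, with 1 of 19 at an unadjusted p under 0.05, against 11% of all genes, and a median of -0.02. Those with most counts were Atrx, Ubn2, Anp32e and Hjurp, at -0.03 ± 0.08, 0.16 ± 0.08, -0.08 ± 0.08 and 0.08 ± 0.08.

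Genes of DNA replication and mitosis were at low per-length levels beside the leading histone genes. Of 30 such genes 21 had enough counts for a test, none passed for age by edgeR and 0 had an unadjusted p under 0.05. Positive values numbered 10 and negative 11, with a median of -0.004. Pcna, the sliding clamp of DNA polymerase, stood at 15.98 CPM per kb and Mcm7, Ccne2 and Mcm4 at 7.58, 6.51 and 4.58. The median of the 39 tested histone genes, 10.6 CPM per kb of exon, lay below Pcna and above Mcm7, Ccne2 and Mcm4. Pcna and the helicase subunit Mcm7 had log2 fold changes of -0.01 ± 0.14 and -0.07 ± 0.10 (SE), and Ccne2 and Mcm4 of 0.02 ± 0.15 and -0.03 ± 0.12. The summed level of the 30 genes was 183 to 192 CPM in old and 175 to 197.5 CPM in young mice.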

How the data were processed

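RNA counts of 8 cerebellum libraries were used, 4 per age, each a separate animal in the labels (the series' design text names liver and ages in months, and the sample labels were followed). The authors deposited raw counts per gene, 1 table per library, per the file headers. The submitters' processing notes name STAR 2.7.5b, featureCounts, Trimmomatic 0.39 and GRCm38. Settings for annotation, strand and reads with several positions are not stated there. Exon lengths and coordinates came from GENCODE M21. Date-like names in 7 tables were resolved by row from the table without them.

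Genes were filtered with edgeR's filterByExpr (minimum count 10 over age-by-sex cells), scaled by TMM, and tested with edgeR 4.0.16 (R 4.3.3) quasi-likelihood on age and sex, with Benjamini-Hochberg adjustment over all 14191 genes at 0.05. The test was checked on simulated counts. No library pair agreed within sampling noise (28 pairs, chi-square per gene of 3.96 or more).

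Named were every tested member, untested members with at least 3 counts in a library, and up to 4 genes per pathway list by level. Hist1h1t and Hist1h2ah were named after their values were seen. Members and lists were chosen with earlier results of these data known. Alternatives were DESeq2 1.42.0 size factors and Wald test, limma-voom (limma 3.58.1), other filters, older edgeR dispersions, no second factor, the replicate number as a block, each library left out, and other scalings of the sums.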

Additional observations from a re-analysis of the deposited data

Results flagged for a closer look

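In groups of 4 libraries, 90 were examined (78 for tested genes and 12 for sums) for a library separated from the other 3 by more than 0.829 of the group's range. Chance flags about 1 in 20 groups, and 6 were found. Hist1h4j was at 4.97 CPM in old 1, against 8.95 to 9.30 CPM in the other old mice. Hist1h4h was at 87.2 CPM in old 3, against 60.6 to 64.4 CPM. Hist1h4b reached 2.79 CPM in young 1, while young 2 to young 4 had 0.940 to 1.19 CPM. Hist1h3a was at 1.73 CPM in old 2, against 2.99 to 3.21 CPM, and at 4.34 CPM in young 1, against 1.68 to 2.04 CPM. The H3 sum was at 38.1 CPM in old 1, against 42.2 to 42.4 CPM in the other old mice.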

How the results depend on the processing

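No other tool, filter, scaling or left-out single library called a histone gene for age. With the 3 libraries richest in liver transcripts left out, an alternative chosen after seeing the data, 1 histone gene was called (Hist3h2a, -0.58), and 184 genes in all, and histone genes at an unadjusted p under 0.05 numbered 8 of 40 in place of 3 of 39. That alternative kept old 1 and old 4, the old mice with the lowest histone sums, and left out old 3, which had the highest. The count of all genes called for age, 17, was 125 with DESeq2's Wald test, 1 with limma-voom, 26 with older edgeR dispersions and 0 to 63 when a library was left out (0 without young 3 or young 4, 63 without old 2). With the replicate number as a block it was 1, with 0 histone genes, but the numbers did not pair the samples (correlations of same-numbered deviations of 0.16, -0.22, -0.05 and -0.25). The count for sex, 6, was 4 to 46 when a library was left out, 46 without old 3. The log2 ratio of the H2A sum was -0.12, and 0.080 without Hist3h2a.

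Of 663 log2 fold changes of histone genes under alternatives, 49 changed sign, in 19 genes whose own values were at most 0.18 in size, and 42 of the 49 came from leaving out 1 library. The cause was not tested. With the 3 libraries out, Hist1h4i was -0.12, Hist1h4f -0.081, Hist1h2bg -0.41 and Hist1h2bb 0.032. With the same sign as before but larger, Hist1h1d was -0.48, Hist1h1b -0.69, Hist1h3i -0.56, Hist1h4h -0.36, Hist1h2bf -1.11 and Hist1h4b 1.01, with adjusted p of 0.129 to 0.432 by edgeR. Hist1h2bg was -0.16 by limma-voom, and Hist1h2bc 0.0027 with DESeq2 size factors and 0.0030 by its Wald test. Leaving out 1 library at a time gave these ranges: Hist2h2ac -0.21 to 0.048, Hist2h2be -0.10 to 0.058, Hist2h3c2 -0.37 to 0.17, Hist2h4 -0.32 to 0.031, Hist4h4 -0.30 to 0.17, Hist3h2ba -0.24 to 0.037, Hist1h4j -0.24 to 0.037, Hist1h4i -0.10 to 0.38, Hist1h4f -0.073 to 0.093, Hist1h1d -0.23 to 0.061, Hist1h2ae -0.31 to 0.18, Hist1h2bg -0.28 to 0.21, Hist1h4d -0.11 to 0.045, Hist1h1e -0.19 to 0.020, Hist1h2bc -0.20 to 0.15, Hist1h4c -0.095 to 0.029, Hist1h2bb -0.14 to 0.060, Hist1h3a -0.080 to 0.56 and Hist1h1a -0.11 to 0.23. The 17 untested genes had at most 12 counts in a library, too few for a test here, and why their counts were low was not tested.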
